A study of Arabidopsis thaliana with 8 samples.

Results

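The nuclear genes of the photosynthetic apparatus were followed here in Arabidopsis thaliana roots: 43 genes of the 27628 in the deposited tables. They were taken by locus as members of named subunit families: 20 antenna genes (6 LHCA genes for the antenna of photosystem I and 14 LHCB genes for that of photosystem II), PSBS, and 22 genes for core subunits (12 of photosystem I, from PSAD to PSAO, and 10 of photosystem II, from PSBO to PSBY). Seedlings, either wild type (WT) or hy5 mutant, had grown upright for 1 week on solid 0.5x MS medium before the root was cut away with a scalpel. The detached roots then lay in liquid MS medium of the same strength, which held 0.1 uM of the cytokinin benzyladenine (BA) or the vehicle only. With 2 RNA-seq libraries per combination, the groups are named for genotype and medium (WT Control and hy5 Control without BA, WT BA and hy5 BA with it). Every library thus came from roots without a shoot, the controls included. Neither the hy5 allele nor the length of the treatment is given in the sources used here. Whether both libraries of a group stem from separate cultures is not stated, so every p-value speaks for the spread of these libraries, which may be technical.

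Photosystems I and II each hold a core, where the charge is separated, and an antenna of chlorophyll-binding proteins that feeds it with light energy. The large reaction centre proteins are encoded in the chloroplast, whereas the antenna proteins and the peripheral core subunits are nuclear genes whose products are imported. HY5, of the bZIP class, is a DNA-binding protein through which light drives gene expression, and it binds elements with an ACGT centre such as the G-box. Cytokinin and the loss of the shoot are both known to promote greening of roots.

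The libraries held from 29928501 to 35289411 estimated counts. HY5 itself had 32.4 and 31.1 CPM (counts per 1e6, scaled between libraries) in untreated and 31.02 and 31.3 in BA-treated WT roots, against 0.826 and 0.931 in untreated and 1.97 and 0.989 in BA-treated hy5 roots. Its log2 fold change from WT to hy5 was -5.17 ± 0.18 (SE) in control medium and -4.37 ± 0.16 with BA (adjusted p = 3.67e-11 and 9.94e-11, edgeR). A list of 11 shoot markers summed to between 1.48 and 2.38 CPM in every library, highest in hy5 BA, and 1 of them, the stomatal receptor gene TMM, passed the low count filter. TMM was higher in hy5 with BA by 0.85 ± 0.26 on the log2 scale (adjusted p = 0.0274, edgeR); the part of shoot-type cells in the results was not tested. By contrast, 11 root markers summed to 4989 and 4740 CPM in untreated and 5702 and 6018 in BA-treated WT roots, against 4861 and 4745 in untreated and 4286 and 3936 in BA-treated hy5 roots. That sum was thus higher with BA in WT and lower with BA in hy5, but a sum follows its most abundant genes. The median log2 fold change over the 11 markers was 0.21 for BA in WT and -0.07 for BA in hy5. For hy5 over WT with BA it was 0.09. SCR, lower in both genotypes, was the only one of the 11 called for BA. In bulk RNA, fewer cells of a type and less RNA per cell cannot be told apart.

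All 43 genes were detected and all passed the filter on low counts. Their summed level was 525.8 and 620.7 CPM in untreated and 659.1 and 565.04 in BA-treated WT roots, against 109.8 and 152.0 in untreated and 180.7 and 188.5 in BA-treated hy5 roots. The 4 WT libraries all stood above the 4 hy5 libraries, whereas the WT libraries with and without BA overlapped. Antenna and core genes summed to about the same CPM in WT, at an antenna to core ratio between 0.794 and 0.994 in the 4 libraries. In the 4 hy5 libraries that ratio lay between 1.25 and 1.37. On a scale per length, where TPM was recomputed without transcripts under 300 bases because these took 11.7 to 18.4% of all TPM, the ratio was 0.551 to 0.709 in WT and 0.840 to 0.935 in hy5.

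**Figure D1:**
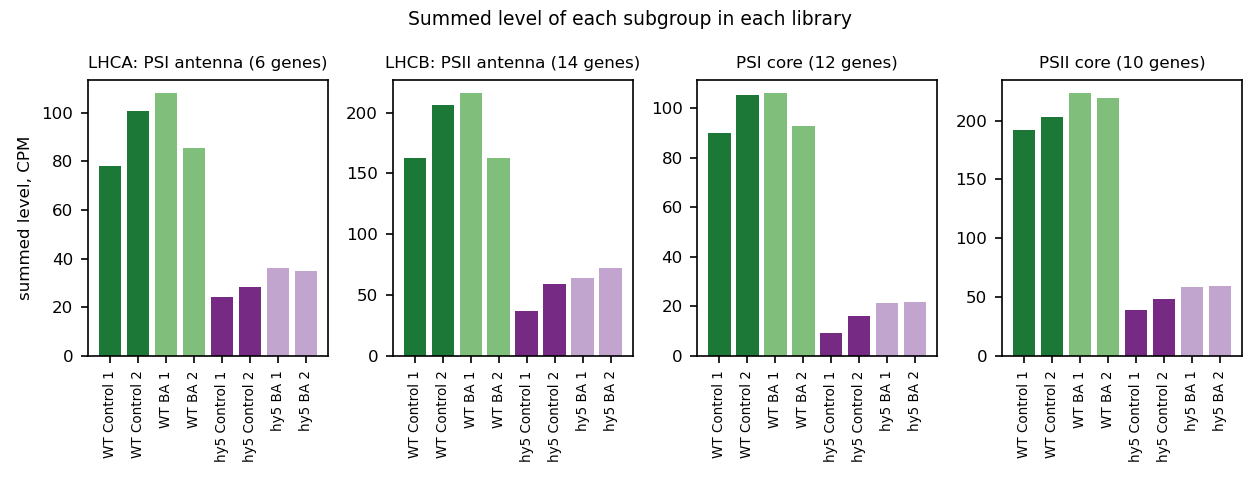
Summed level (y axes, CPM, each from 0) of the 6 LHCA, 14 LHCB, 12 photosystem I core and 10 photosystem II core genes, with 1 bar for each of the 8 libraries, coloured by group. In all 4 panels the hy5 bars are lower than the WT bars; the photosystem I core sum is 89.9 to 106.0 CPM in WT and 9.15 to 21.5 CPM in hy5.

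Per length, one gene led the whole set in every group. PSBR, a small membrane-bound subunit of photosystem II that helps the oxygen-evolving proteins to assemble, stood at 171.8 and 165.0 recomputed TPM in WT Control and at 28.8 and 30.4 in hy5 Control. In WT Control it was followed by LHCB1.3 (47.8 and 77.5), LHCB1.5 (49.1 and 59.9), PSBO1 (39.0 and 45.5), LHCA4 (35.5 and 45.8) and LHCB4.1 (38.1 and 39.2). LHCB1.3 and LHCB1.5 overlapped, as did PSBO1, LHCA4 and LHCB4.1 among themselves, while PSBR stood clear of the first pair and that pair clear of the other genes. In hy5 Control the order was another: after PSBR came LHCA4 (19.5 and 19.8), LHCB4.1 (12.3 and 15.8) and PSBX (11.3 and 13.3), of which the last 2 overlapped, while LHCB1.3 and LHCB1.5 had dropped to ranks 8 and 16 of 43.

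**Figure D2:**
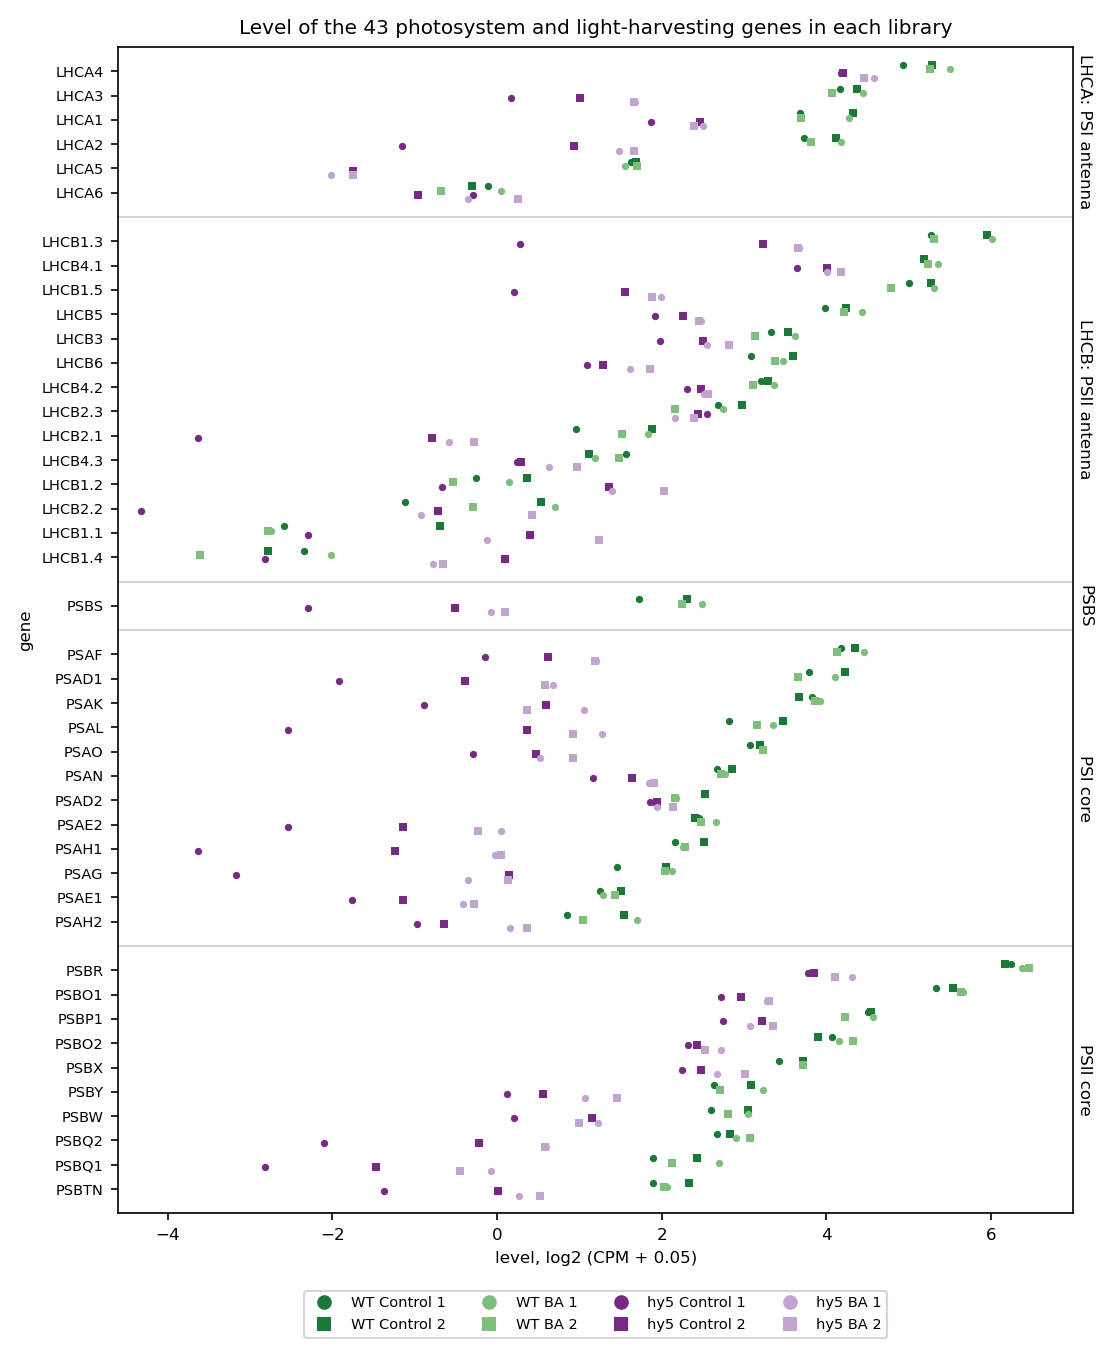
Level of each of the 43 genes (rows, ordered by WT Control within a subgroup) in each of the 8 libraries on a log2 (CPM + 0.05) axis. Colours mark the group and symbols the replicate: the hy5 points lie to the left of the WT points for most genes, and hy5 Control 1 is the lowest library for 38 of the 43.

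Most of the set was lower in hy5 roots. In control medium 36 of the 43 genes were lower in hy5 than in WT at an adjusted p under 0.05 (edgeR quasi-likelihood test, Benjamini-Hochberg over 22682 genes) and none was higher; over all genes tested, 11.4% were called lower and 13.7% higher. At an unadjusted p under 0.05 the count was 37. All 22 core genes fell, as did 13 of the 20 antenna genes and PSBS. The median log2 fold change was -2.66 over the core and -1.50 over the antenna, beside -0.001 over all genes tested. By subgroup the medians were -3.39 for the photosystem I core, -2.47 for the photosystem II core, -2.74 for LHCA and -1.26 for LHCB. The fitted level was at least 8-fold lower for 9 core genes, 6 antenna genes (LHCB1.3 among them, which was not called) and PSBS. For 38 genes both hy5 libraries lay under both WT libraries, which held for 31.5% of all genes tested. Of the 36 calls, 33 held under all 15 alternative settings; the other 3 were LHCA1, PSAG and PSAL. Without hy5 Control 1 the median over all 43 genes was -2.10, and without hy5 Control 2 it was -2.74, with 37 genes called each time.

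**Figure D3:**
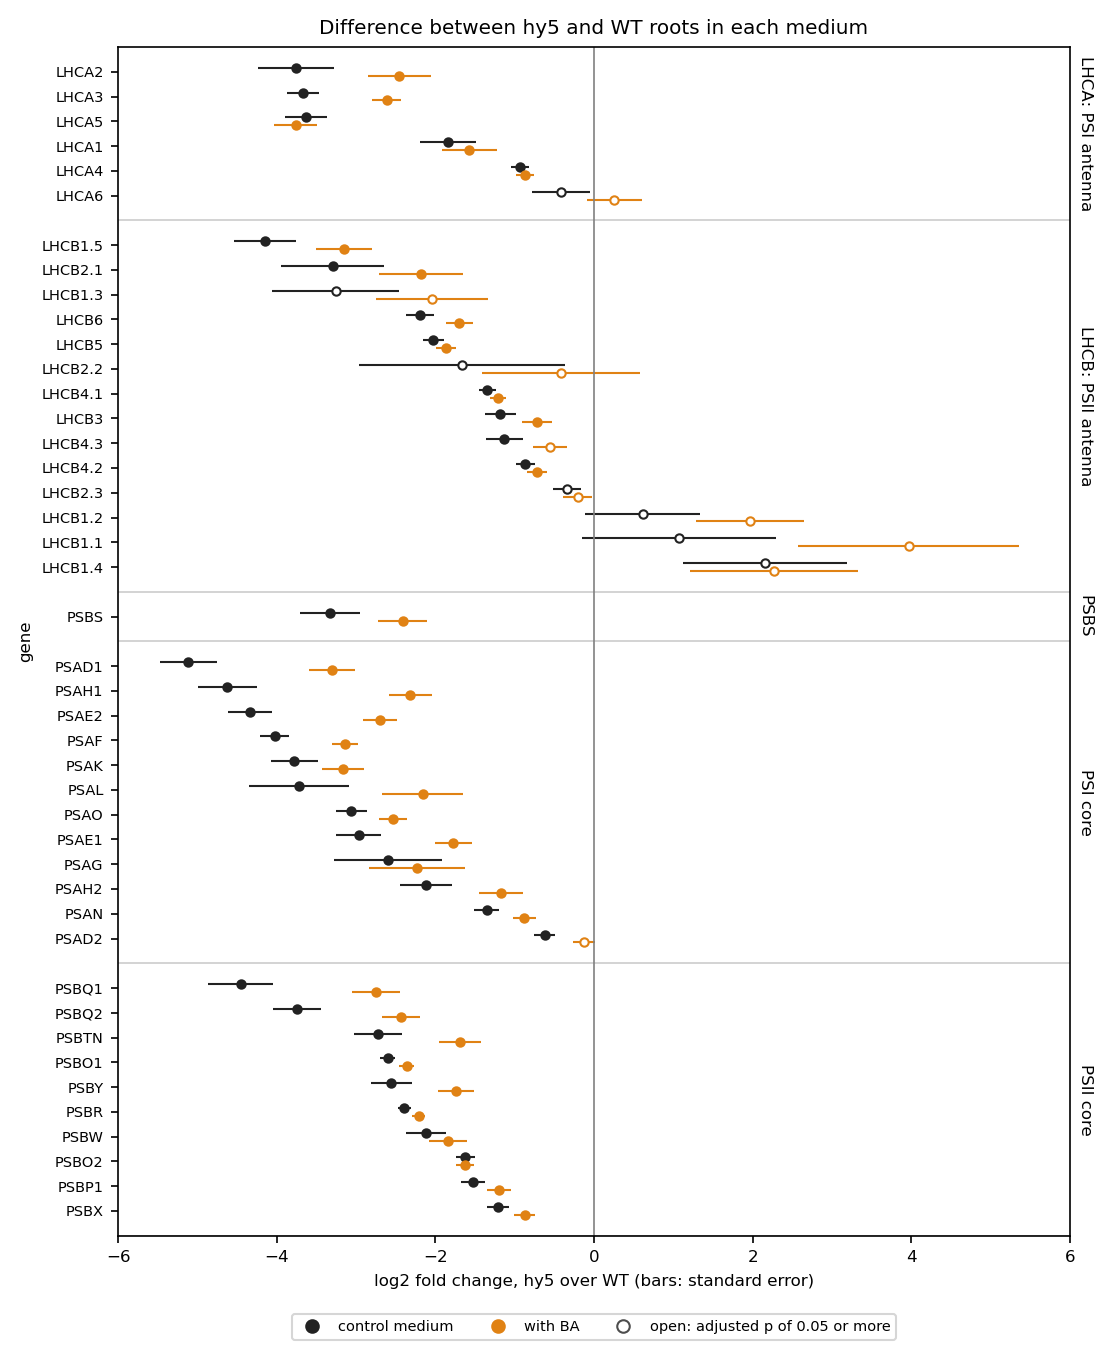
Log2 fold change of hy5 over WT (x axis) for each of the 43 genes in control medium (black) and with BA (orange), with standard errors; open symbols did not reach an adjusted p under 0.05. The 22 core genes all lie left of 0, from -5.12 for PSAD1 to -0.62 for PSAD2 in control medium, whereas LHCB1.1, LHCB1.2 and LHCB1.4 lie to the right.

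The photosystem I core fell furthest. PSAD and PSAE form the stromal ridge where ferredoxin docks, and each is encoded by a pair of genes. PSAD1 (AT4G02770, chr4:1229031-1230164, minus strand, build TAIR10.1) had 13.8 and 18.7 CPM in untreated and 17.2 and 12.6 in BA-treated WT roots, against 0.214 and 0.714 in untreated and 1.55 and 1.45 in BA-treated hy5 roots. The WT and hy5 libraries were far apart at every value, and hy5 BA stood above hy5 Control. Its fold change in control medium was -5.12 ± 0.36 (adjusted p = 1.25e-05, edgeR), the most negative of the 43.

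PSAD2 (AT1G03130, chr1:753307-754262, minus strand, build TAIR10.1), whose coding sequence is 86.3% identical to that of PSAD1, behaved otherwise. It had 5.65 and 5.71 CPM in untreated and 4.47 and 4.41 in BA-treated WT roots, against 3.58 and 3.79 in untreated and 3.81 and 4.36 in BA-treated hy5 roots. All values lay within a narrow span, with the hy5 libraries just under the WT ones. The fall was -0.62 ± 0.13 (adjusted p = 0.00238, edgeR) in control medium and -0.13 ± 0.14 with BA, which was not called. The WT excess of PSAD1 over PSAD2 thus became an excess of PSAD2 in hy5. Only 0.453 and 0.540% of the 31-base words of PSAD1 and PSAD2 occur in any other locus of the tables, the partner being the locus that shares the most.

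For the PSAE pair, PSAE2 (AT2G20260) went from 5.44 and 5.27 CPM in WT Control to 0.122 and 0.404 in hy5 Control. It fell by 4.33 ± 0.28 on the log2 scale, and PSAE1 (AT4G28750) by 2.97 ± 0.28 (adjusted p = 7.67e-09 and 6.02e-07, edgeR). PSAE1 shares 30.9% of its 31-base words with other loci, above all with an overlapping gene on the opposite strand, so its level is uncertain. PSAH, with PSAL (AT4G12800) and PSAO (AT1G08380), lies on the side of photosystem I where mobile antenna trimers dock. PSAH1 (AT3G16140) went from 4.42 and 5.68 CPM to 0.031 and 0.372, and PSAH2 (AT1G52230) from 1.76 and 2.86 to 0.459 and 0.590. The falls were -4.63 ± 0.37 and -2.12 ± 0.33. In WT Control PSAH1 was the higher of the pair in both libraries and in hy5 Control the lower in both. These 2 genes share 49.9 and 21.4% of their 31-base words with other loci, above all with an overlapping gene on the opposite strand, so their levels are uncertain.

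Among single-copy photosystem I subunits, PSAF (AT1G31330), which docks plastocyanin, had 18.1 and 20.3 CPM in WT Control and 0.857 and 1.49 in hy5 Control, a change of -4.03 ± 0.19 (adjusted p = 1.31e-09, edgeR). PSAK (AT1G30380) and PSAG (AT1G55670), membrane subunits at which antenna proteins attach, changed by -3.78 ± 0.30 and -2.60 ± 0.69. PSAL and PSAO changed by -3.72 ± 0.63 and -3.06 ± 0.19. The lumenal PSAN (AT5G64040) fell least of the single-copy genes, from 6.32 and 7.17 CPM to 2.204 and 3.07, or by 1.35 ± 0.16. PSAG was called at an adjusted p of 0.0427, which lay between 0.0662 and 0.182 when any 1 WT or hy5 BA library was left out; 59.9% of its 31-base words occur in other loci, above all in an overlapping gene on the opposite strand. PSAL was lost in 1 setting, without WT Control 2 (adjusted p = 0.052).

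In photosystem II the extrinsic proteins PSBO, PSBP and PSBQ shield the manganese cluster that splits water. PSBO1 (AT5G66570), the main PSBO gene, had 40.3 and 46.5 CPM in untreated and 50.4 and 49.7 in BA-treated WT roots, against 6.52 and 7.76 in untreated and 9.67 and 9.80 in BA-treated hy5 roots. The groups of the 2 genotypes were well apart. Its change in control medium was -2.60 ± 0.10 (adjusted p = 2.16e-11, edgeR), and that of PSBO2 (AT3G50820) was -1.62 ± 0.12.

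The PSBQ pair moved together and by more. PSBQ1 (AT4G21280) went from 3.66 and 5.33 CPM in WT Control to 0.092 and 0.310 in hy5 Control, and PSBQ2 (AT4G05180) from 6.32 and 7.04 to 0.184 and 0.807. Their changes of -4.46 ± 0.41 and -3.75 ± 0.30 were the 2 most negative among the core genes of photosystem II. PSBR (AT1G79040, chr1:29735952-29737009, plus strand, build TAIR10.1), the highest gene of the set, went from 75.6 and 71.7 CPM to 13.6 and 14.4, at -2.39 ± 0.08 (adjusted p = 8.44e-12, edgeR). The small membrane subunits PSBW (AT2G30570), PSBX (AT2G06520) and PSBY (AT1G67740) and the small lumenal PSBTN (AT3G21055) changed by -2.12 ± 0.25, -1.22 ± 0.14, -2.55 ± 0.26 and -2.73 ± 0.30.

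PSBP1 (AT1G06680) fell by 1.53 ± 0.15, and its 2 main transcripts differed. The shorter one, whose first exon begins further downstream, had 357.7 and 395.9 estimated counts in WT Control and 384.8 and 309.8 in WT BA. In hy5 it had 7.02 and 10.9 counts without BA and 24.4 and 70.1 with BA. The longer one had 276.2 to 415.3 counts in the 4 WT libraries and 210.0 to 287.1 in the 4 hy5 libraries. The longer transcript thus made up 45.8 to 53.7% of the PSBP1 counts in WT and 78.6 to 96.8% in hy5. No test was made between transcripts, and a split of this kind rests on the reads that Salmon could place in the unshared 5′ part. A neighbouring gene on the same strand reaches over the start of PSBP1, and its part in these counts was not tested.

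The photosystem I antenna showed a wide range. LHCA1 to LHCA4 form the belt on one side of the core. LHCA3 (AT1G61520) had 17.8 and 20.7 CPM in untreated and 21.7 and 16.8 in BA-treated WT roots, against 1.07 and 1.96 in untreated and 3.16 and 3.12 in BA-treated hy5 roots. Both genotypes were separate in both media, and the change was -3.67 ± 0.21 (adjusted p = 8.52e-08, edgeR). LHCA2 (AT3G61470) changed by -3.76 ± 0.48. LHCA4 (AT3G47470) kept more of its level, with 30.5 and 38.9 CPM in WT Control and 18.0 and 18.4 in hy5 Control, or -0.93 ± 0.12 (adjusted p = 5.71e-05, edgeR). LHCA1 (AT3G54890) stood at -1.84 ± 0.35; its adjusted p by edgeR of 0.0157 became 0.0645 without hy5 Control 1.

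LHCA5 (AT1G45474) and LHCA6 (AT1G19150) are low-abundance linkers that join photosystem I to the chloroplast NDH complex. LHCA5 had 3.04 and 3.17 CPM in untreated and 2.89 and 3.198 in BA-treated WT roots, against 0.245 and 0.248 in untreated and 0.197 and 0.247 in BA-treated hy5 roots. It fell by 3.63 ± 0.26 without BA and by 3.76 ± 0.27 with it. LHCA6 had 0.878 and 0.761 CPM in untreated and 0.987 and 0.576 in BA-treated WT roots, against 0.765 and 0.466 in untreated and 0.733 and 1.14 in BA-treated hy5 roots. Its groups overlapped and it was called in no contrast (-0.41 ± 0.37, adjusted p = 0.459 by edgeR in control medium).

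Of the 7 genes not called lower in control medium, 6 belong to the photosystem II antenna. LHCB1, LHCB2 and LHCB3 (AT5G54270) form the trimers, and LHCB4, LHCB5 (AT4G10340) and LHCB6 (AT1G15820) the monomers between trimers and core. All 6 genes from LHCB3 to LHCB6 fell in control medium: LHCB6 by 2.19 ± 0.18, LHCB5 by 2.03 ± 0.13, LHCB4.1 (AT5G01530) by 1.34 ± 0.10, LHCB3 by 1.18 ± 0.20, LHCB4.3 (AT2G40100) by 1.13 ± 0.23 and LHCB4.2 (AT3G08940) by 0.86 ± 0.12. LHCB4.1, the highest of them, had 36.0 and 36.5 CPM in WT Control and 12.5 and 16.05 in hy5 Control.

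Of the 8 LHCB1 and LHCB2 genes only LHCB1.5 (AT2G34420) and LHCB2.1 (AT2G05100) were called in control medium. LHCB1.5 had 32.1 and 38.7 CPM in untreated and 39.7 and 27.6 in BA-treated WT roots, against 1.102 and 2.89 in untreated and 3.92 and 3.65 in BA-treated hy5 roots, a change of -4.15 ± 0.39 (adjusted p = 0.0013, edgeR). LHCB1.3 (AT1G29930) had 38.6 and 61.8 CPM in untreated and 64.6 and 39.6 in BA-treated WT roots, against 1.16 and 9.34 in untreated and 12.7 and 12.6 in BA-treated hy5 roots. Its 2 hy5 Control libraries were far from each other, and the change of -3.26 ± 0.80 missed the threshold (adjusted p = 0.0541, edgeR), though not with both media averaged (-2.65 ± 0.54, adjusted p = 0.0236) or without hy5 Control 2 (0.0255). The averaged call was lost in 8 of 15 settings, with an adjusted p by edgeR of up to 0.0971.

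The low-level copies of LHCB1 were not called lower. LHCB1.4 (AT2G34430) had 0.146 and 0.095 CPM in untreated and 0.197 and 0.032 in BA-treated WT roots, against 0.092 and 1.02 in untreated and 0.535 and 0.587 in BA-treated hy5 roots. Averaged over media, 37 of the 43 genes were lower in hy5, beside 16.8% of all genes tested. LHCB1.4 was the only one higher (2.21 ± 0.74, adjusted p = 0.0482, edgeR), beside 17.8% of all genes tested. That call was lost in 9 of 15 settings. LHCB1.4 had 1.16 to 5.85 estimated counts in the WT libraries, under the filter's minimum count of 10. It thus passed the filter only through hy5 libraries, where it is higher, so the call is no separate support for a rise. LHCB1.1 (AT1G29920) and LHCB1.2 (AT1G29910) had fold changes of 1.07 ± 1.23 and 0.61 ± 0.73 in control medium, neither called. With BA, LHCB1.1 had 2.97 and 2.62 estimated counts in WT and 30.6 and 74.5 in hy5. LHCB1.2 had 31.7 and 20.1 in WT BA and 91.8 and 130.5 in hy5 BA. Both genes were thus higher in both hy5 BA libraries, which held for 7103 of the 22682 genes tested, but neither was called there. Among the WT libraries LHCB1.1 reached the minimum count of 10 in WT Control 2 only (18.1 counts). It thus passed the filter only with the help of hy5 libraries, so its higher level there is no separate support for a rise. The 5 LHCB1 genes share 23.5 to 38.6% of their 31-base words with other loci, the closest being another LHCB1 gene in each case, so counts of the low copies are uncertain beside LHCB1.3 and LHCB1.5. Summed to 1 family, an alternative added after the data had been seen, LHCB1 had 72.0 and 102.7 CPM in untreated and 105.7 and 67.8 in BA-treated WT roots, against 3.09 and 17.1 in untreated and 20.6 and 23.0 in BA-treated hy5 roots. The family changed by -3.11 ± 0.74 in control medium (adjusted p = 0.0502) and by -2.55 ± 0.51 averaged over media (adjusted p = 0.022, both edgeR).

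In the LHCB2 family, LHCB2.1 went from 1.90 and 3.65 CPM in WT Control to 0.031 and 0.528 in hy5 Control (-3.29 ± 0.65, adjusted p = 0.00858, edgeR). It shares 31.2% of its 31-base words with other loci, above all with LHCB2.2, so its level is uncertain. Summed to 1 family by the same added alternative, LHCB2 changed by only -0.80 ± 0.24 in control medium (adjusted p = 0.0412, edgeR). With BA the family stood at -0.64 ± 0.24 and was not called (adjusted p = 0.0969, edgeR). LHCB2.3 (AT3G27690) had 6.38 and 7.80 CPM in untreated and 6.68 and 4.41 in BA-treated WT roots, against 5.82 and 5.37 in untreated and 4.42 and 5.19 in BA-treated hy5 roots. It was called in no contrast (-0.34 ± 0.17 in control medium), and 39.9% of its 31-base words also occur in other loci, above all in an overlapping gene on the opposite strand. LHCB2.2 (AT2G05070) was low, from 0.410 to 1.58 CPM in WT and from 0 to 1.298 in hy5, and was called in no contrast either. PSBS (AT1G44575), the lumen pH sensor that switches on heat dissipation in the antenna, went from 3.25 and 4.92 CPM in WT Control to 0.153 and 0.652 in hy5 Control (-3.33 ± 0.38, adjusted p = 4.56e-05, edgeR).

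Of the 43 genes, 27 share at least one 31-base word with another locus, and 14 share over 10% of them. Among the 29 genes that share at most 10% of their 31-base words with other loci, 28 were lower in hy5 in control medium, with a median of -2.39. With each paralog family summed to 1 row, 7 of 8 families were lower in control medium, LHCB1 being the exception.

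**Figure D4:**
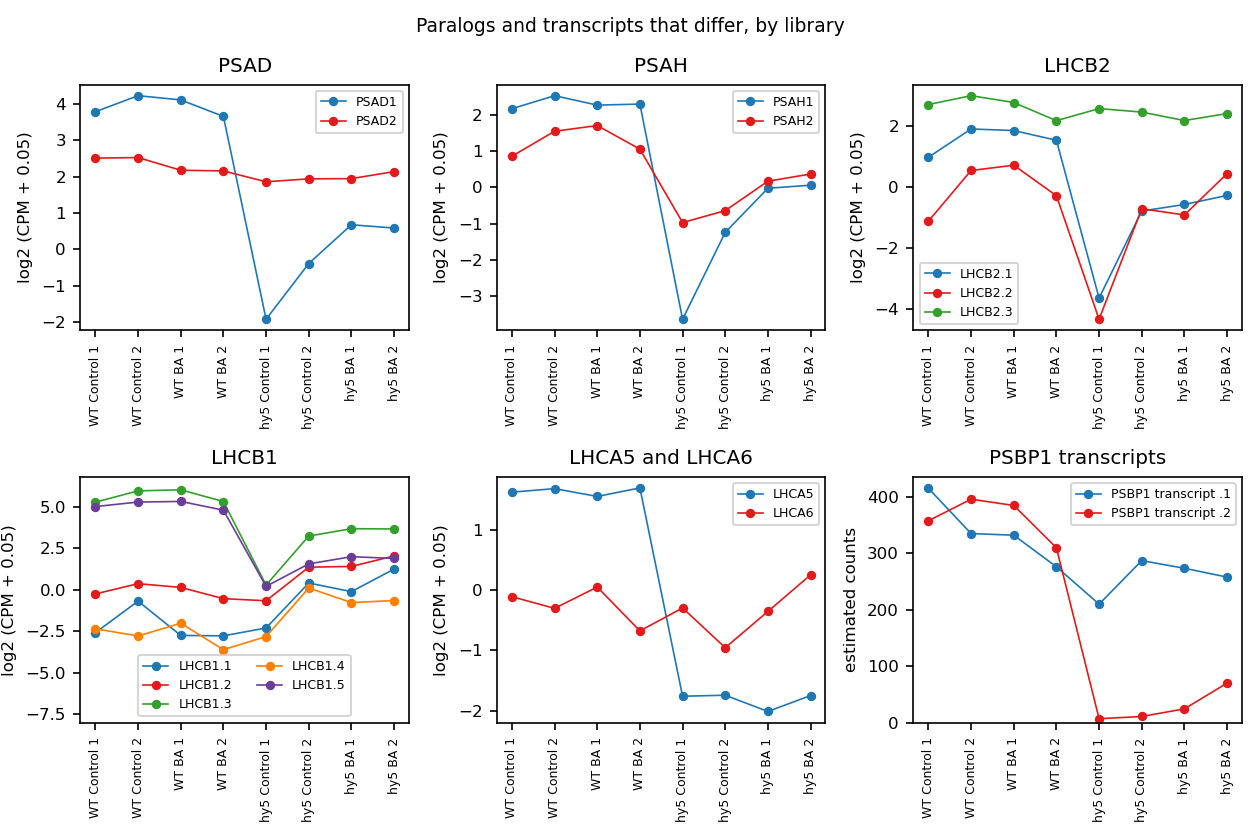
Level in each of the 8 libraries (x axis) of 4 paralog families and of LHCA5 beside LHCA6, on log2 (CPM + 0.05) axes, and estimated counts of both PSBP1 transcripts; lines only join the points of 1 gene or transcript. PSAD1 drops from 12.6 to 18.7 CPM in WT to 0.214 to 1.55 CPM in hy5 while PSAD2 stays between 3.58 and 5.71 CPM, and the shorter PSBP1 transcript drops in hy5 while the longer one has 210.0 to 415.3 counts in all 8 libraries.

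The comparison of hy5 with WT was repeated in medium with BA. There 34 genes were lower in hy5 and none higher, beside 12.4% called lower and 11% higher over all genes, with 21 of 22 core genes, 12 of 20 antenna genes and PSBS among them. These 34 had all been called in control medium as well; the 2 called only there were LHCB4.3 and PSAD2. The difference in fold between the media is the interaction given further on, which did not pass for either (adjusted p = 0.441 and 0.263, edgeR). The median was -2.18 over the core, -1.04 over the antenna and 0.010 over all genes. PSBR stood at -2.21 ± 0.08, PSBO1 at -2.36 ± 0.09, PSAF at -3.14 ± 0.16, PSAD1 at -3.31 ± 0.29 and LHCB1.5 at -3.15 ± 0.35. Of the 34 calls, 27 held under all 15 alternatives; the others were LHCA1, LHCA2, LHCB2.1, LHCB3, PSAG, PSAH2 and PSAL. The hy5 contrasts in the 2 media share no library, whereas the BA contrast in hy5 shares the hy5 Control libraries with the first of them.

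A set of 6 promoters is shown to put fold changes beside sequence: the 250 bases before the annotated start of 3 genes with a G-box and different fold changes, and of 3 genes with none that all fell strongly, in windows free of other annotated genes. They are printed 5′ to 3′ on the gene's strand from the RefSeq annotation of build TAIR10.1, and capitals mark the G-box CACGTG, the I-box GATAAG and the element CCAATC linked to the GLK transcription factors, each on either strand.
PSBQ2: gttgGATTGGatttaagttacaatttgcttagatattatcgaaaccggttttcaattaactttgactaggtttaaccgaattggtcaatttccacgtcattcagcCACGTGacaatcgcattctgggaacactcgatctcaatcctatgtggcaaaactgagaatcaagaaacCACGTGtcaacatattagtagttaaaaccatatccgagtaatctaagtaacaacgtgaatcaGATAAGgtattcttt
LHCB4.1: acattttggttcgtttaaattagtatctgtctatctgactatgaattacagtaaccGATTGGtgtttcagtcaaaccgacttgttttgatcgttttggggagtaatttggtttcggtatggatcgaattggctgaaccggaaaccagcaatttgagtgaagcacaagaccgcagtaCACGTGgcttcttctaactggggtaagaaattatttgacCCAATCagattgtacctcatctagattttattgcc
LHCB2.3: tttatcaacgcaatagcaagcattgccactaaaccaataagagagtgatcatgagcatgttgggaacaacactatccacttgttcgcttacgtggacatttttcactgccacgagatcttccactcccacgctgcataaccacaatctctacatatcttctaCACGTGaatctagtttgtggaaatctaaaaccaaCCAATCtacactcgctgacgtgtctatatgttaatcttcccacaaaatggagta
LHCB2.1: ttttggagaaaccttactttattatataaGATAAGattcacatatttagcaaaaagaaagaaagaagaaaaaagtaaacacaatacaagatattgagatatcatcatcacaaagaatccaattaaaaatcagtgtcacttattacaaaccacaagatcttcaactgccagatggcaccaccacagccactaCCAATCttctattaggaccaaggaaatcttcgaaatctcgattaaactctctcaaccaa
LHCB1.5: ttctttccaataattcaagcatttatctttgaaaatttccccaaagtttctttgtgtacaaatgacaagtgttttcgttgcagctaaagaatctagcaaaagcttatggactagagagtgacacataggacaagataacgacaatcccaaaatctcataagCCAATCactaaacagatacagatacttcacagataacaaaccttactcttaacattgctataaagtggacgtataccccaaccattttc
PSAD1: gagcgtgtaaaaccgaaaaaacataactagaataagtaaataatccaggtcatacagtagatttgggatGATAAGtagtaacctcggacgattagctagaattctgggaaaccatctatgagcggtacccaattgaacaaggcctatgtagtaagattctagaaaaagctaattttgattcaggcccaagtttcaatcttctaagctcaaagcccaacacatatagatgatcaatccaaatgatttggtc

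PSBQ2 (chr4:2673244-2673493, minus strand) holds 2 G-boxes, which begin 145 and 77 bases before the start, and fell by 3.75 on the log2 scale in control medium. LHCB4.1 (chr5:208616-208865, plus strand) and LHCB2.3 (chr3:10255656-10255905, plus strand) hold 1 each, at 74 and 88 bases before the start, and had changes of -1.34 and -0.34. LHCB2.3 shares 39.9% of its 31-base words with other loci, so its change is uncertain. LHCB2.1 (chr2:1824481-1824730, minus strand), LHCB1.5 (chr2:14523569-14523818, minus strand) and PSAD1 (chr4:1230165-1230414, minus strand) hold no G-box in this window and had changes of -3.29, -4.15 and -5.12. LHCB2.1 and LHCB1.5 share 31.2 and 36.3% of their 31-base words with other loci, so their changes are uncertain too. The genes shown were picked by G-box and fold change together, so they cannot show whether one goes with the other.

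Over the whole set, windows of 250 bases before and 50 after the start held a G-box in 15 of 43 genes (34.9%), beside 7.68% of the 27443 promoters searched. It was present in 11 of 22 core and 4 of 20 antenna genes. In PSAE1, PSAH1, PSBO1, PSBO2, PSBR and PSBW, all core genes, the only G-box lay after the annotated start. In the antenna genes with one (LHCA4, LHCB2.3, LHCB4.1 and LHCB6) it lay before the start. The GATAAG element was present in 18 of 43 (41.9%, beside 14.6% of all), of which 12 were core genes and 6 antenna genes. The CCAATC element was in 15 of 43 (34.9%, beside 12.3% of all), of which 11 were antenna genes and 4 core genes. The ACGTG core, which every G-box contains, was in 22 of 43 (51.2%, beside 26.7%), of which 11 of 22 core and 10 of 20 antenna genes. The remaining elements were the CCA1 site AAAAATCT in 6 of 43 (14.0%, beside 7.88%), the evening element AAAATATCT in 1 of 43 (2.33%, beside 2.82%) and TATAAA in 20 of 43 (46.5%, beside 52.1%).

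Fold changes in hy5 were set beside the presence of each element, as a description. For the G-box the median in control medium was -2.39 over the 15 genes with one and -2.29 over the 28 without. Within the core these medians were -2.73 and -2.60, and within the antenna -1.14 and -1.75. For GATAAG they were -2.89 with and -2.03 without over all 43 genes, -3.74 and -2.26 within the core, and -1.59 and -1.42 within the antenna. For CCAATC they were -2.03 with and -2.47 without over all 43, -3.89 and -2.60 within the core, where 4 genes hold it, and -1.84 and -1.13 within the antenna. These matches describe the sequence only; whether HY5 binds there was not measured.

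In WT roots BA went with no call in the set: 0 of the 43 genes were called in either direction by edgeR, beside 8.2% of all genes tested; 5 passed an unadjusted p under 0.05 and DESeq2 called 0. The median fold change was 0.07, with 24 genes above 0 and 19 below. The smallest adjusted p among them was that of PSBR, with 75.6 and 71.7 CPM in WT Control and 82.97 and 87.9 in WT BA (0.21 ± 0.07, adjusted p = 0.0858, edgeR). Leaving out 1 library gave at most 2 calls: LHCA4 and PSBO1 without WT Control 2, and LHCB2.3, lower, without WT BA 1. WT libraries of 1 group differed in the same direction for most of the set: WT Control 2 was above WT Control 1 for 36 of the 43 genes, and WT BA 1 above WT BA 2 for 35.

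In hy5 roots BA went with higher levels. A total of 10 genes were called higher and none lower, beside 3.11% called higher and 8.01% lower over all genes tested. These were 9 of 22 core genes and 1 of 20 antenna genes, and 41 of the 43 fold changes lay above 0. The median was 0.85 over the core and 0.56 over the antenna, beside 0.02 over all genes. Split further, it was 1.03 for the photosystem I core, 0.47 for the photosystem II core, 0.46 for LHCA and 0.56 for LHCB. The LHCB1 and LHCB2 genes, none of them called, stood at 1.12. A higher core than antenna median thus did not hold for every subgroup. For 31 genes both hy5 BA libraries stood above both hy5 Control libraries, which held for 28.6% of all genes tested. The summed root markers were lower in both hy5 BA libraries than in both hy5 Control libraries. The median log2 fold change over the 11 markers was -0.07, and their part in the result was not tested.

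The 4 largest of these rises were in genes with little RNA in hy5. PSAH1 went from 0.031 and 0.372 CPM in hy5 Control to 0.930 and 0.989 in hy5 BA (2.24 ± 0.50, adjusted p = 0.0108, edgeR). PSBQ1 went from 0.092 and 0.310 to 0.902 and 0.680 (1.97 ± 0.57), PSAE2 from 0.122 and 0.404 to 0.987 and 0.803 (1.76 ± 0.38), and PSBQ2 from 0.184 and 0.807 to 1.47 and 1.45 (1.56 ± 0.38). All 4 stayed under their WT levels in each library. PSAE1, LHCA3 and PSAF rose by 1.18 ± 0.34, 1.05 ± 0.26 and 0.93 ± 0.25. PSAE1 and PSAH1 are the 2 among the 10 that share over 10% of their 31-base words with other loci. The highly expressed PSBX, PSBO1 and PSBR rose by 0.48 ± 0.15, 0.45 ± 0.11 and 0.40 ± 0.09, with PSBR going from 13.6 and 14.4 CPM to 19.8 and 17.1 (adjusted p = 0.00671, edgeR).

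These 10 calls depend on single libraries. Within hy5 Control, replicate 1 was below replicate 2 for 41 of the 43 genes, with a median log2 difference of -0.54; the median absolute difference over all genes was 0.089. Without hy5 Control 1 the count of calls was 0 and the median fold change over the 43 genes 0.39; without hy5 Control 2 they were 18 and 1.32. It was 1 without hy5 BA 1 (PSBX) and 2 without hy5 BA 2 (PSAE2 and PSBR). The direction was kept by more: 36 of the 43 fold changes lay above 0 without hy5 Control 1. hy5 Control 1 and hy5 BA 2 also differ from the other libraries in that 21.6 and 23.5% of their transcripts carry a count that misses a whole number by less than 0.001, beside 1.34 to 1.53% elsewhere. With both left out no gene was called and the median was 0.31.

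**Figure D5:**
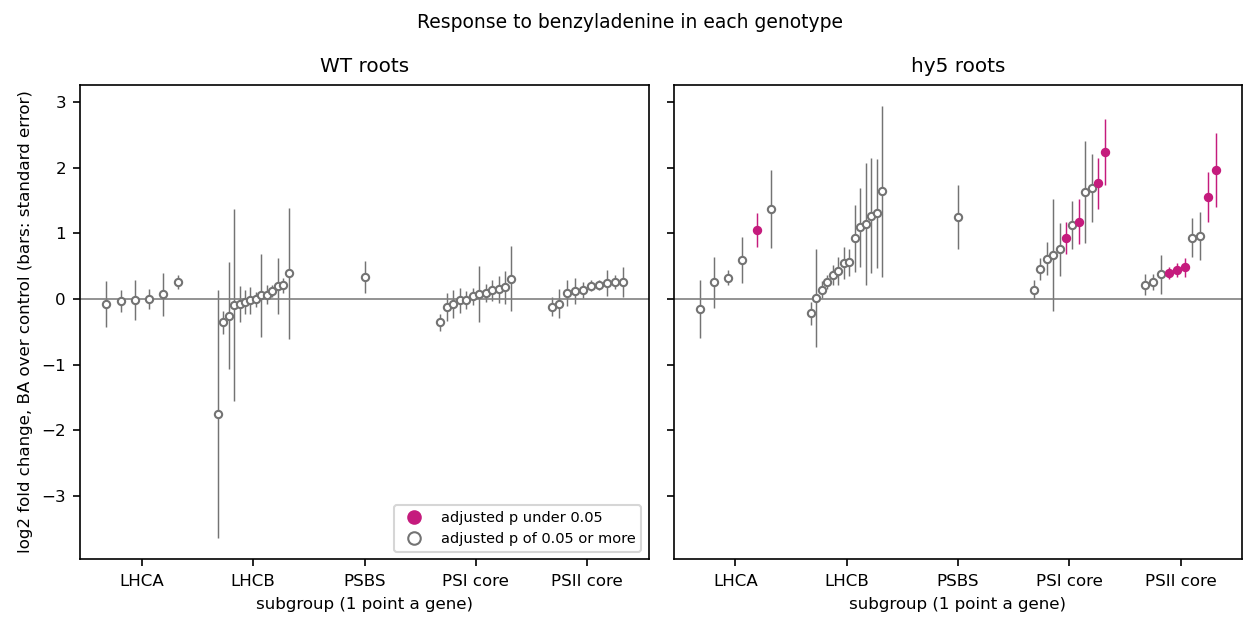
Log2 fold change of BA over control medium (y axis, with standard errors) for each gene, grouped by subgroup, in WT (left) and hy5 (right); filled symbols reached an adjusted p under 0.05. In WT the points scatter around 0 with none filled, and in hy5 41 of 43 lie above 0 with 10 filled, 9 of them core genes.

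The difference between the BA responses of both genotypes was itself tested. As the interaction, 0 of the 43 genes were called by edgeR, beside 0.485% of all genes tested; 12 passed an unadjusted p under 0.05 and DESeq2 called 1, LHCA3. Fold changes of the interaction lay above 0 for 41 genes, with a median of 0.61. The smallest adjusted p values were those of PSAH1 (2.31 ± 0.55, 0.0911) and PSAE2 (1.63 ± 0.42, 0.0992, both edgeR). Leaving out 1 library gave 0 to 3 calls: 1 without WT Control 1 (PSAH1) and 3 without hy5 Control 2 (LHCA2, PSAH1 and PSBQ2).

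Averaged over genotypes, 12 of the 43 genes were called higher with BA and none lower, beside 6.46% called higher and 9.98% lower over all genes tested. In WT alone none of the 43 was called. They were LHCA3, LHCA4, LHCB5, PSAE2, PSAF, PSAH1, PSBO1, PSBO2, PSBQ1, PSBQ2, PSBR and PSBX. PSBR had the smallest p (0.31 ± 0.06, adjusted p = 0.00126, edgeR) and was the only one to hold under all 15 alternatives. LHCA4 rose by 0.30 ± 0.08, LHCB5 by 0.29 ± 0.09 and PSBO2 by 0.26 ± 0.08, with interactions of 0.06 ± 0.16, 0.16 ± 0.19 and -0.001 ± 0.18. For PSAH1 the interaction was 2.31, beside a rise of 2.24 in hy5, so its average came from hy5. The count was 3 without hy5 Control 1 (PSBO1, PSBQ2 and PSBR) and 21 without hy5 Control 2.

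Genes that work beside the photosystems were counted from lists. The shares over all genes tested were 11.4% lower and 13.7% higher for hy5 in control medium, and 3.11% higher and 8.01% lower for BA in hy5. In control medium 8 of 10 electron carrier and ATP synthase genes were lower in hy5, among them ATPC1, the gamma subunit of the ATP synthase (-4.28 ± 0.17), PETC, the Rieske protein of the cytochrome complex (-3.19 ± 0.14), and DRT112, a plastocyanin (-4.99 ± 0.28). So were 7 of 9 relatives of the antenna proteins, such as OHP2 (-1.81 ± 0.12) and ELIP1, an early light-induced protein (-3.75 ± 0.22). Lower too were 10 of 14 chlorophyll synthesis genes, such as GUN5, a subunit of magnesium chelatase (-3.51 ± 0.12). The named genes fell by more than their lists, whose medians were -1.02, -1.30 and -0.92 in the order given. None in these 3 lists was higher. In hy5, BA raised 3 of the 10 electron carrier genes (DRT112, PETC and ATPC1), and the interaction of ATPC1 was called (1.24 ± 0.26, adjusted p = 0.0463, edgeR), while no antenna relative or chlorophyll synthesis gene was called; the lists themselves were not tested against each other. Of the 6 chloroplast-encoded photosystem genes that passed the filter, of 7 listed, all fell in control medium with a median of -2.55, and BA raised 4 of them in hy5. In WT, BA lowered 1 of the 6, with a median of -0.37. The interaction was called for 2 of them, both above 0, beside 0.485% of all genes tested. By edgeR it was called for 0 of the 43 nuclear genes, of which 41 also lay above 0, with a median of 0.61. The 2 sets were not tested against each other. The libraries were purified with oligo-dT, and chloroplast transcripts carry a poly(A) tail only in part. Of 4 greening regulators, 3 passed the filter and 1 fell in control medium, the GATA factor GNC (-6.85 ± 1.14). With BA it was lower by less (-1.69 ± 0.57, adjusted p = 0.0449, edgeR). The 4 regulators together summed to 3.89 to 5.53 CPM in the 8 libraries, so the size of the larger change is uncertain. Of 4 Rubisco small subunit genes 1 fell in control medium (RBCS1A, -3.01 ± 0.38), and the list median was 1.79. With BA, RBCS1A was lower and RBCS1B higher in hy5, and averaged over media RBCS1B and RBCS2B were both higher. These 2 were at 0 to 0.066 CPM in the 4 WT libraries and at 0 to 1.48 CPM in the 4 hy5 libraries. The low count filter lay at about 0.307 CPM, so both passed it only through hy5 libraries. Of the 11 root markers, 3 were higher and 1 lower in hy5 in control medium, and 0 were higher and 2 lower in hy5 with BA (EXPA7 and PYK10). BA lowered 1 of the 11, SCR, in both genotypes.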

How the data were processed

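Polyadenylated RNA of detached roots was sequenced in 8 libraries, 2 for each combination of genotype and medium. The authors quantified transcripts of build TAIR10 with Salmon, per the submitters' processing notes; for its version, options and strand setting, the sources used here give nothing. The deposited tables give, per the file headers, an estimated count and a TPM for each of 48332 transcripts, with replicates separate.

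Here estimated counts were summed to 27628 loci and rounded. Loci were kept with edgeR's filterByExpr (minimum count 10), which left 22682, scaled by TMM and tested with edgeR 4.0.16 in R 4.3.3 (robust quasi-likelihood, 4 group means, all 8 libraries, two-sided). Benjamini-Hochberg adjustment of each p-value ran over these 22682 genes, with calls under 0.05. The fit left 4 residual degrees of freedom. CPM values are TMM-scaled; fold changes are log2 with the SE derived from the F statistic. DESeq2 1.42.0, limma 3.58.1 on log2(TPM + 1), other scalings, no filter, a replicate block and leaving out libraries were tried, 15 alternatives in all. Counts were also simulated for 22682 genes, with changes put on genes picked at random, at their mean level over the 8 libraries. Of genes changed 2-fold, 85.1% were recovered for hy5 in control medium and 76.1% for hy5 with BA. The members were not looked at apart there, so these shares need not hold for them. Totals per library set a precision that covers counting error only.

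The members and lists were chosen with earlier results of these data known. Values are given for every member called in any contrast, for PSBS, for HY5 and for the 2 highest and 2 lowest members of each subgroup; of other lists at most 3 genes, by smallest p. All 43 loci were named in the RefSeq annotation TAIR10.1, where 99.6% of transcript lengths equalled those in the tables and from which promoters were read. Shared sequence was measured as the percent of 31-base words found in transcripts of another locus, on either strand.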

Additional observations from a re-analysis of the deposited data

Results flagged for a closer look

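PSAD2, the less affected gene of the PSAD pair, was singled out because its libraries moved in opposite directions with BA in the 2 genotypes. Both WT BA libraries (4.47 and 4.41 CPM) lay under both WT Control libraries (5.65 and 5.71 CPM), and both hy5 BA libraries (3.81 and 4.36 CPM) lay above both hy5 Control libraries (3.58 and 3.79 CPM). Of the 22682 genes tested, the first held for 5729 and the second for 6481, so each alone is common. The interaction of PSAD2 was 0.4987 on the log2 scale, with an SE of 0.19 and an adjusted p of 0.263 by edgeR, so the test of the difference did not pass. The start of PSAD2 lies against a neighbouring gene on the same strand, with 2 bases of overlap.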

How the results depend on the processing

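Counts of genes lower in hy5 stayed within 1.5 times of 36 in control medium and of 34 with BA under every alternative. The BA counts did not. Leaving out 1 library gave 0 to 2 calls for BA in WT, 0 to 18 for BA in hy5, 0 to 3 for the interaction and 3 to 21 for BA averaged over genotypes. With hy5 Control 1 and hy5 BA 2 both left out, BA in hy5 had 0 calls and averaged BA 1. DESeq2 gave 1 interaction call, and log2(TPM + 1) with limma gave 4 averaged BA calls. The antenna median less the core median was 1.16 for hy5 in control medium (1.16 to 1.58 leaving out 1 library, 1.28 without both), and 1.15 with BA (0.76 to 1.19, 0.76 without both, 0.64 on log2 TPM). It was -0.29 for BA in hy5 (-0.66 to -0.0324), and -0.12 for BA in WT (-0.18 to 0.01), where it turned to 0.0145 without WT BA 2; the cause was not tested. Deviations of same-numbered libraries from their group means correlated across genes at r from -0.083 to 0.055, so the numbers were not taken as pairs; with a replicate block the counts were 36 for hy5 in control medium, 34 with BA, 0 for BA in WT, 10 for BA in hy5 and 0 for the interaction. LHCB1.1, LHCB1.4, LHCB2.2 and LHCA6, with means under 1 CPM over the 8 libraries, rest on few reads, and a difference there may go undetected.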
